A study of Mus musculus with 6 samples.

Results

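The small leucine-rich proteoglycans are secreted matrix proteins built on a core of leucine-rich repeats, most of which carry glycosaminoglycan chains. The values below are for 10 of their genes, chosen by name: Dcn, Bgn and Aspn of class I, Fmod, Lum, Prelp, Kera and Omd of class II, and Ogn and Epyc of class III. They are 10 of 55487 genes in the count table, and all 10 were among the 19015 genes that passed the filter on low counts. Members bind collagen fibrils and set their diameter and spacing, and several of them bind growth factors or their receptors. Decorin, biglycan and epiphycan carry chondroitin or dermatan sulfate and several class II cores keratan sulfate. In skin the family is known mainly as a product of dermal fibroblasts.

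RNA-sequencing was analysed for 6 samples labelled as skin endothelial cells (ECs) of C57BL/6 mice, of which 3 had 48 hours in medium with 5 mmol/L glucose (normal glucose) and 3 had 48 hours at 20 mmol/L (high glucose). An isolation pooled the skin of 4 to 6 mice aged 2 to 3 months, the digested cells were incubated with beads against CD31 (Pecam1), and no group carried a transgene or deletion by its labels. The study counts its replicates in mice, while the labels describe pooled mice and do not say that replicates came from separate isolations or cultures. The p-values therefore measure the spread between these samples, which may be technical. Total counts per sample lay between 120192466 and 146881356.

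The labelled cell type was set against its markers. Pecam1, the bead target, had 9 to 19 counts per sample, Tie1 0 to 2 and Cldn5 0 to 4, and Cdh5 (VE-cadherin) had 91 to 242. Summed over 12 endothelial markers, of which 9 were tested, the level was 73.8 to 77.0 CPM (counts scaled to the TMM-normalized library size) in normal and 57.0 to 57.6 CPM in high glucose, and Flt1 alone made 55.3 and 38.4 CPM of it on average. Flt1, Cdh5 and Egfl7 were lower, while Tek was higher at 0.66 on the log2 scale (adjusted p = 0.00219) and Erg, named after its values were seen, at 1.45 on 2 to 15 counts (adjusted p = 0.0453). Only 1 of them was higher when any single sample other than normal glucose replicate 2 was left out, and 2 or 3 were lower. Markers of fibroblasts summed to 5998 to 6377 CPM in normal and 6890 to 7037 CPM in high glucose, with 7 of 12 higher and 4 lower. In bulk samples fewer cells of a type and less RNA per cell cannot be told apart, and the part of cell makeup in the results below was not tested.

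The 250 bases upstream of the start site are shown for 4 members, for Epyc of the first of 2 start sites in RefSeq. These include Ogn and Epyc, the class III genes among the 10 members, which moved in opposite directions. The others are Prelp and Fmod, neighbours on chromosome 1 that were both higher in high glucose. Sequences are from RefSeq on GRCm38.p6, in which 8 of the 10 members were matched, and Dcn and Lum were not. Each runs 5′ to 3′ on the strand of its gene, and capitals mark every match to 5 motifs, searched on both strands: the TATA box TATAAA, the AP-1 element TGANTCA, the E-box CANNTG, the SMAD element CAGAC and the GC box GGGCGG.
Prelp, chr1:133921402-133921651, minus strand: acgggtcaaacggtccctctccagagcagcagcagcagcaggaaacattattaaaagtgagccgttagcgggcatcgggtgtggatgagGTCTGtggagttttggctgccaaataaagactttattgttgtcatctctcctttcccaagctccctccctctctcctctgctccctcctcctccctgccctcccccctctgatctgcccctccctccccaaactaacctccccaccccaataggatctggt
Fmod, chr1:134037004-134037253, plus strand: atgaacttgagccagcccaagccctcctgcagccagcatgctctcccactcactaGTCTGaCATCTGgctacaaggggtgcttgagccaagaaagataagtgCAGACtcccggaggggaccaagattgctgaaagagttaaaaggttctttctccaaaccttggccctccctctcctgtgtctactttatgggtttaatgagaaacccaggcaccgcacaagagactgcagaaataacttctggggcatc
Ogn, chr13:49607765-49608014, plus strand: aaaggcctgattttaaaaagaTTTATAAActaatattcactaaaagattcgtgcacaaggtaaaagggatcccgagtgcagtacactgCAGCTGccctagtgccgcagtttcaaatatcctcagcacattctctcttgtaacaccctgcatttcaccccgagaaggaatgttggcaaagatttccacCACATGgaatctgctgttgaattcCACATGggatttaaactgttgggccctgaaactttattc
Epyc, chr10:97643818-97644067, plus strand: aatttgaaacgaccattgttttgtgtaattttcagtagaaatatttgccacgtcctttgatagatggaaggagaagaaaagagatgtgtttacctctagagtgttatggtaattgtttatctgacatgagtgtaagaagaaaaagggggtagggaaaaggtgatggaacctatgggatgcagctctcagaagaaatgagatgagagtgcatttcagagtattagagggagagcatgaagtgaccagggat

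In the Prelp window the only match was a CAGAC element on the opposite strand, 161 bases upstream of the start. The Fmod window held an E-box 189 bases upstream and CAGAC elements 195 (opposite strand) and 148 bases upstream. In the Ogn window lay 3 E-boxes, 162, 63 and 39 bases upstream, and a pair of overlapping TATAAA matches far upstream at 229 (opposite strand) and 227 bases. The window shown for Epyc held none of the 5 motifs, nor did those of Kera and Omd, which says only that these letters are not in these windows. The window of the second Epyc start site, chr10:97646853-97647102, held 2 E-boxes, 118 and 106 bases upstream. Among 32851 mouse promoter windows of the same length, 12.4% held the TATA box, 6.75% the AP-1 element, 66.2% an E-box, 42.2% CAGAC and 32.7% a GC box, and a match is a description of the letters only.

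High glucose was compared with normal glucose to ask how the RNA of each proteoglycan moved. Of the 10 members, 8 were higher in high glucose, Epyc was lower, and Omd did not pass the test. The gains ran from 1.15-fold for Bgn to 2.24-fold for Prelp, and the levels of Epyc fell to 0.471 of those in normal glucose. By the same test (quasi-likelihood in edgeR, p-values adjusted by Benjamini-Hochberg over all tested genes, threshold 0.05), 16.9% of all tested genes were higher and 14.5% lower. Lower genes thus made 46.2% of all calls, against 56.5% with upper quartile and 72.9% with library size scaling, and the direction of each member was the same under all of them. The median log2 fold change was 0.53 over the 10 members and 0.0062 over all tested genes. Prelp and Kera reached a log2 fold change of 1, as 2.08% of tested genes did among those higher, and Epyc reached -1, as 2.85% did among those lower. In 9 members every high glucose sample lay above every normal glucose sample, and in Epyc every one lay below, against 25.1% and 21.3% of all tested genes.

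**Figure D1:**
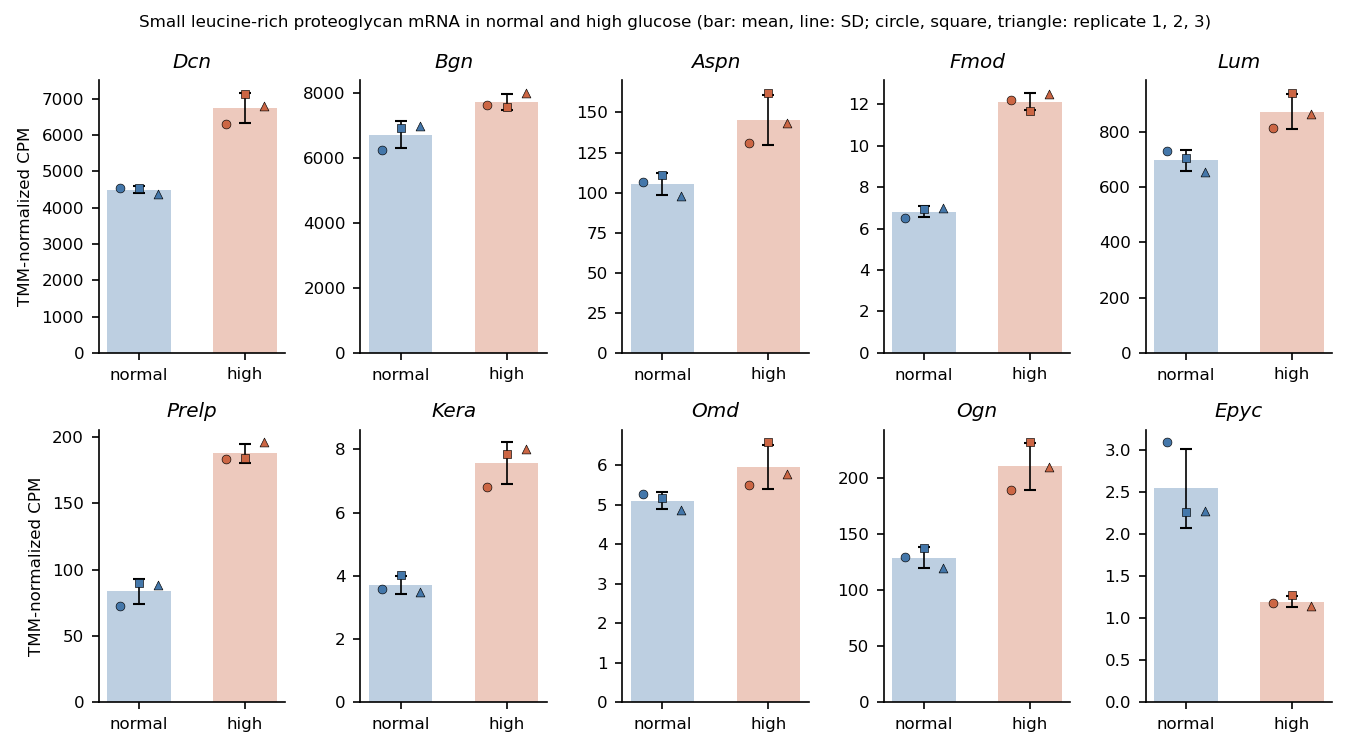
TMM-normalized CPM of the 10 genes in each of the 3 normal and 3 high glucose samples, with 1 panel per gene, bars for the group means and error bars for 1 SD. The groups do not overlap in any panel, and Epyc is the 1 gene whose high glucose samples lie below.

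Among the members, all 3 genes of class I were higher. Decorin (Dcn) wraps around collagen fibrils and binds TGF-β, and its gene spans chromosome 10 from 97479609 to 97518143 on the plus strand of GRCm38. Dcn was at 4556, 4542 and 4381 CPM in the normal glucose samples and at 6313, 7133 and 6801 CPM in the high glucose samples, from 560977 to 916666 counts. The samples of a group lay close together and far from the other group, at 4493 ± 97.0 and 6749 ± 413 CPM (SD, n = 3). This was a 1.50-fold rise, with a log2 fold change of 0.59 (SE 0.057, adjusted p = 3.23e-05).

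Biglycan (Bgn, X chromosome, 73483602 to 73495933, plus strand), the nearest relative of decorin, also acts as a ligand of Toll-like receptors when freed from the matrix. Its levels were 6235, 6931 and 6998 CPM in normal and 7621, 7564 and 8004 CPM in high glucose. The first normal glucose sample was the lowest, and the groups did not overlap, though the gap between them (6998 to 7564 CPM) was narrower than the range within normal glucose. Means were 6721 ± 423 and 7730 ± 239 CPM (SD, n = 3), and its log2 fold change was 0.20 (SE 0.059, adjusted p = 0.0256). The call was lost without high glucose replicate 1 (0.19, adjusted p = 0.0924), 2 (0.20, adjusted p = 0.073) or 3 (0.16, adjusted p = 0.161), and the value was 0.13 without normal glucose replicate 1. Scaled by library size alone, the log2 fold change of Bgn was 0.087 (adjusted p = 0.265), so its rise depends on the scaling.

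Asporin (Aspn, chromosome 13, 49544443 to 49567565, plus strand) carries a run of aspartate residues and competes with decorin for collagen. It was at 106, 111 and 97.8 CPM in normal and 131, 162 and 143 CPM in high glucose. All high glucose samples were above all normal ones, at 145 ± 15.7 against 105 ± 6.82 CPM (SD, n = 3), and the log2 fold change was 0.47 (SE 0.081, adjusted p = 0.00148).

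Class II held the largest gains. Prelp (chromosome 1, 133910304 to 133921414, minus strand) has a proline- and arginine-rich end that binds heparan sulfate, and it is thought to anchor basement membranes to collagen. Its levels were 72.9, 89.6 and 88.6 CPM in normal and 183, 184 and 196 CPM in high glucose. The lowest high glucose sample was above the highest normal one by far more than the spread in either group. From 83.7 ± 9.40 to 188 ± 7.06 CPM (SD, n = 3), the log2 fold change was 1.16 (SE 0.079, adjusted p = 2.57e-06), and 305 of the 3212 genes called higher had a larger one. An antisense transcript, Gm15851, shares 350 exonic bases with Prelp and was itself higher (9 to 19 counts in normal and 27 to 49 in high glucose). The strand setting of the counting is not given in the sources used here, so reads of the pair cannot be told apart, but Prelp had 9122 or more counts in every sample.

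Keratocan (Kera, chromosome 10, 97606879 to 97613692, plus strand) is best known as a keratan sulfate proteoglycan of the cornea. It was at 3.59, 4.03 and 3.49 CPM in normal and 6.80, 7.86 and 8.01 CPM in high glucose. No sample of one group came near the other, at 3.70 ± 0.289 and 7.56 ± 0.657 CPM (SD, n = 3), with a log2 fold change of 1.03 (SE 0.098, adjusted p = 2.77e-05).

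Fibromodulin (Fmod, chromosome 1, 134037254 to 134048277, plus strand) binds fibrillar collagen and lysyl oxidase and takes part in collagen cross-linking. Its levels were 6.49, 6.97 and 6.97 CPM in normal and 12.2, 11.7 and 12.5 CPM in high glucose. Samples within a group were nearly level, at 6.81 ± 0.275 and 12.1 ± 0.422 CPM (SD, n = 3), and the log2 fold change was 0.83 (SE 0.071, adjusted p = 1.3e-05).

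Lumican (Lum, chromosome 10, 97565128 to 97572703, plus strand) binds the same region of collagen as fibromodulin and keeps fibrils thin and evenly spaced. Levels of 729, 706 and 653 CPM in normal and 813, 939 and 863 CPM in high glucose did not overlap. Lum rose from 696 ± 38.9 to 872 ± 63.7 CPM (SD, n = 3), and its log2 fold change was 0.32 (SE 0.067, adjusted p = 0.00422).

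Osteomodulin (Omd, chromosome 13, 49582462 to 49592822, plus strand), known from bone, was at 5.28, 5.16 and 4.87 CPM in normal and 5.48, 6.57 and 5.78 CPM in high glucose. Its groups lay apart only narrowly, since high glucose replicate 1 was close to normal glucose replicate 1. At 5.10 ± 0.213 and 5.95 ± 0.562 CPM (SD, n = 3), the log2 fold change was 0.22 (95% interval 0.014 to 0.43), and it did not pass the adjusted test (adjusted p = 0.098). Without high glucose replicate 2 its log2 fold change was 0.13, and it did not pass under any of the 18 alternatives tried (adjusted p 0.0885 to 0.412).

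Among the members, the 2 genes of class III moved in opposite directions. Osteoglycin, or mimecan (Ogn, chromosome 13, 49608046 to 49624501, plus strand), is a small proteoglycan of connective tissue and vessel walls. It was at 130, 138 and 120 CPM in normal and 189, 231 and 210 CPM in high glucose. Every high glucose sample was well above the highest normal one, at 210 ± 21.1 against 129 ± 9.09 CPM (SD, n = 3), with a log2 fold change of 0.70 (SE 0.079, adjusted p = 8.57e-05).

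Epiphycan (Epyc, chromosome 10, 97644068 to 97682454, plus strand) is known from the growth plate cartilage. Its counts were 387, 322 and 292 in normal and 168, 148 and 154 in high glucose, or 3.09, 2.27 and 2.28 CPM against 1.18, 1.27 and 1.14 CPM. Normal glucose replicate 1 was the highest, and all normal samples were above all high glucose ones. From 2.55 ± 0.471 to 1.20 ± 0.0665 CPM (SD, n = 3), Epyc fell by 1.09 on the log2 scale (SE 0.14, adjusted p = 2.69e-04), and the change was -0.94 without that replicate (adjusted p = 1.33e-04). An antisense long noncoding gene, Gm10754, shares 1041 exonic bases with Epyc and had at most 6 counts in any sample. As for Prelp, reads of this pair cannot be told apart without the strand setting.

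**Figure D2:**
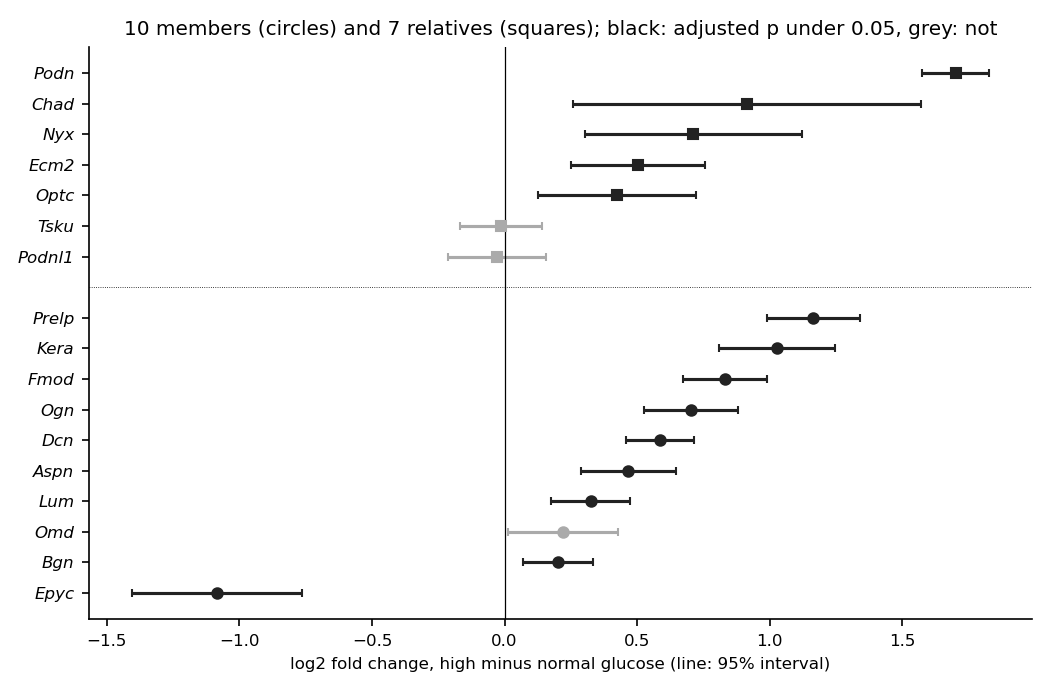
Log2 fold change of each gene, high minus normal glucose, with its 95% interval, for the 10 members (circles) and 7 relatives (squares), in black where the adjusted p is under 0.05 and in grey otherwise. Among the members Prelp lies farthest to the higher side at 1.16 and Epyc alone on the lower side, at -1.09.

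Among the replicates of high glucose, replicate 2 had the highest CPM for 6 members (Dcn, Aspn, Lum, Omd, Ogn and Epyc) and replicate 3 for the other 4 (Bgn, Fmod, Prelp and Kera). In normal glucose the highest sample was replicate 1 for Dcn, Lum, Omd and Epyc, replicate 2 for Aspn, Prelp, Kera and Ogn, and replicate 3 for Bgn and Fmod.

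The members differed far more in level than they moved. Per length, in RPKM (CPM divided by the kilobases of merged exons), Bgn stood at 1102 and Dcn at 770 in normal glucose, and Lum followed at 284. Ogn (50.3 RPKM), Aspn (44.7 RPKM) and Prelp (23.2 RPKM) formed the middle. Omd at 2.27, Fmod at 2.06, Kera at 1.62 and Epyc at 0.995 RPKM were the lowest, and the top and bottom of the order lay 1108-fold apart. Of the neighbours in this order, Ogn and Aspn overlapped in their ranges over the 3 samples and the others did not. The gaps between Omd and Fmod (0.0539 RPKM) and between Fmod and Kera (0.195 RPKM) were narrow. The gap between Omd and Fmod was smaller than the ranges of both genes (0.184 and 0.146 RPKM). That between Fmod and Kera was smaller than the range of Kera (0.237 RPKM) but not than that of Fmod. In every normal glucose sample the upper gene of each pair was still above the lower, and these differences were not tested.

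In high glucose the order was the same down to Prelp, with Bgn at 1267, Dcn at 1156, Lum at 356, Ogn at 81.9, Aspn at 61.8 and Prelp at 51.9 RPKM. Fmod (3.67 RPKM) and Kera (3.31 RPKM) then stood above Omd (2.64 RPKM), and Epyc was last at 0.469 RPKM. No neighbours overlapped, and the ends of the order lay 2705-fold apart. Gaps were narrow between Bgn and Dcn (18.4 RPKM), Ogn and Aspn (4.91 RPKM) and Aspn and Prelp (1.45 RPKM). So were those between Fmod and Kera (0.0164 RPKM) and between Kera and Omd (0.0621 RPKM). Each of these gaps was smaller than the ranges of both genes over the samples. In every high glucose sample the upper gene of each pair was still above the lower, and these differences were not tested. The level of Bgn depends on the gene model: the merged exons cover 6099 bases and the longest transcript 2666. Per longest transcript Bgn was at 2521 RPKM in normal glucose and Dcn at 958 RPKM, with no change in the order. That transcript of Bgn has 1 exon and is 1 of 8 annotated, and the order by other transcripts was not tested.

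**Figure D3:**
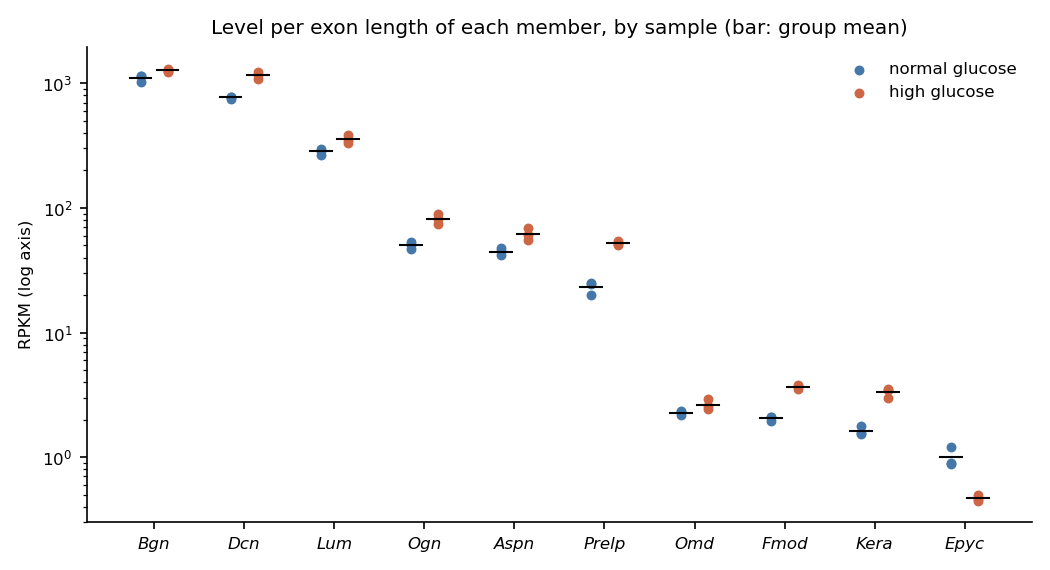
Level of each gene in RPKM on a log axis, with a point per sample, a colour per group and a bar at the group mean. Bgn leads in both groups with means of 1102 and 1267 RPKM, and Epyc is lowest at 0.995 and 0.469 RPKM.

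As a share of all counts, the 10 members together held 1.27% ± 0.0402 in normal and 1.53% ± 0.0475 in high glucose (SD, n = 3). Dcn made 0.468% and 0.648%, Bgn 0.699% and 0.743%, and the other 8 genes 0.107% and 0.138%. By counts, Bgn ranked 6 among all genes in both groups, while Dcn ranked 9 in normal and 7 in high glucose. The ratio of Dcn to Bgn within a sample was 0.731, 0.655 and 0.626 in normal and 0.828, 0.943 and 0.850 in high glucose. Every high glucose sample had the higher ratio, and the log2 ratios differed by 0.38 (two-sided exact permutation test, p = 0.1, adjusted over 2 ratios 0.1). For the class II pair that shares a collagen site, the ratio of Fmod to Lum was 0.00890, 0.00987 and 0.0107 in normal and 0.0150, 0.0124 and 0.0145 in high glucose, again without overlap (log2 difference 0.51, exact permutation p = 0.1). With 3 samples against 3, 0.1 is the smallest p that test can give.

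All members but Bgn lie in 3 gene clusters of GRCm38. On chromosome 10, Dcn, Lum, Kera and Epyc follow each other on the plus strand, Epyc starting 164.5 kb after Dcn, and they gave log2 fold changes of 0.59, 0.32, 1.03 and -1.09 in that order. Kera, the member of this cluster with the largest gain, thus stands next to Epyc, the only member that fell. The next protein-coding gene before them, Btg1, lies at -862.6 kb from Dcn and was at 0.13 (adjusted p = 0.118), and Ccer1, the next one after them, had too few counts to be tested. On chromosome 13, the relative Ecm2 and the members Aspn, Omd and Ogn gave 0.50, 0.47, 0.22 and 0.70. These genes lie inside Cenpp, a centromere protein gene of the opposite strand, which was lower at -0.87 (adjusted p = 7.49e-04), and the flanking genes Ippk (-0.042) and Nol8 (-0.031) did not pass the test. On chromosome 1, Optc, Prelp and Fmod gave 0.42, 1.16 and 0.83, while the next protein-coding gene, Btg2, was lower at -0.33 (adjusted p = 0.00144) and Atp2b4 was at -0.080.

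**Figure D4:**
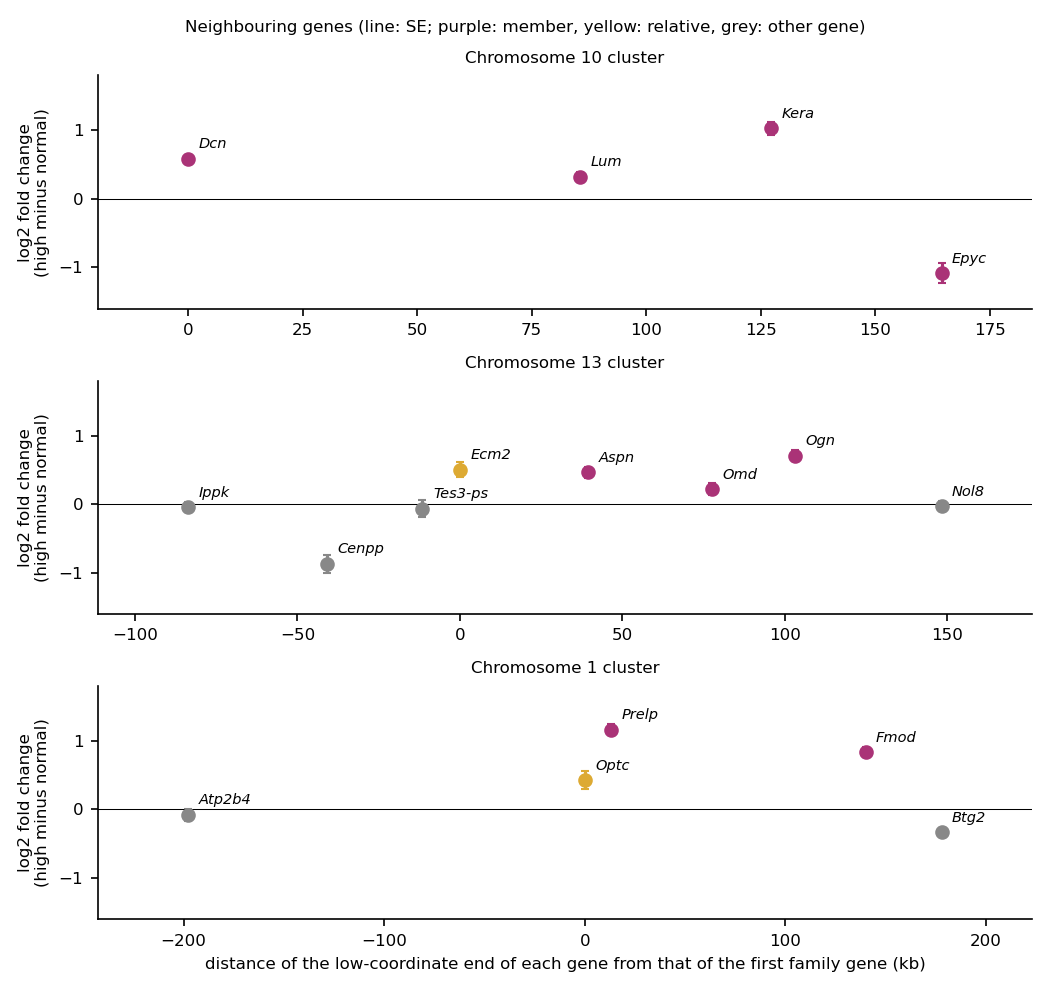
Log2 fold change, high minus normal glucose, of the tested genes of the 3 clusters and near neighbours (Btg1 is left out for its distance) against the distance of each gene's low-coordinate end from that of the first family gene, in kb, with error bars for 1 SE. In the chromosome 10 panel Kera at 1.03 and Epyc at -1.09 are neighbours, and in the chromosome 13 panel Cenpp at -0.87 lies below the family genes.

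Of 7 further genes of the leucine-rich family, 5 were higher, none was lower, and the median log2 fold change was 0.50. The count of 5 rests on all 6 samples: it was 2 without high glucose replicate 3, 3 without any other single sample, and 3 with DESeq2, library size scaling, no filter or a replicate block. Podocan (Podn), a class V relative, moved further than any of the 10 members, from 53.2 ± 3.11 to 173 ± 1.52 CPM (SD, n = 3), with a log2 fold change of 1.70 (SE 0.057, adjusted p = 4.04e-08). Ecm2 was higher at 0.50 (adjusted p = 0.00694) and nyctalopin (Nyx) at 0.71 (adjusted p = 0.0144). Opticin (Optc) at 0.42 (adjusted p = 0.0348) and chondroadherin (Chad) at 0.92 (adjusted p = 0.0383, on 10 to 31 counts) kept the call in 8 of 18 and 7 of 17 alternatives. Tsukushi (Tsku) was at -0.013 and Podnl1 at -0.030, and neither passed the test.

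The collagens that the family binds were higher in 11 of 13 tested genes and lower in none, with a median of 0.51. Col3a1, which forms the thin fibrils of skin, went from 12421 ± 651 to 32515 ± 1662 CPM (SD, n = 3), and its log2 fold change was 1.39 (adjusted p = 1.43e-07). Col12a1, a fibril-associated collagen, was higher by 0.86 (adjusted p = 4.52e-05), Col1a1 by 0.76 (adjusted p = 1.37e-05) and Col5a3 by 0.68 (adjusted p = 8.83e-06) on the log2 scale.

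The enzymes that make the chains moved in both directions. Of 23 genes for the linker and for chondroitin or dermatan sulfate, 6 were higher and 4 lower, with a median of 0.064. The count of lower genes was 1 without normal glucose replicate 3 or without high glucose replicate 3 and 8 with library size scaling, and the median was -0.051 with that scaling and -0.00084 without normal glucose replicate 1. Chsy1, which extends chondroitin, was higher at 0.79 (adjusted p = 4.05e-06) and Dsel, a dermatan sulfate epimerase, at 0.46 (adjusted p = 0.00199). The sulfotransferases Chst13 (-0.69, adjusted p = 0.00265) and Chst3 (-0.55, adjusted p = 0.0305, a call kept in 13 of 18 alternatives) were lower. Among 6 tested keratan sulfate genes, B4galt4 was higher at 0.26 (adjusted p = 0.00994) and Chst1, a keratan sulfate sulfotransferase, was lower at -0.50 (adjusted p = 4.37e-04), and Chst4 had no counts in any sample. The median of that list was 0.097, but -0.018 with library size scaling, and B4galt4 lost its call with that scaling and without high glucose replicate 3. In the supply of activated sulfate 3 of 7 genes were lower and none higher: Papss2 at -0.56 (adjusted p = 1.73e-04), Papss1 at -0.22 (adjusted p = 0.00679) and Bpnt1 at -0.18 (adjusted p = 0.0384, kept in 13 of 18 alternatives).

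Proteases that process or cleave the family, and the enhancers of such proteases, were split, with 6 of 12 higher and 5 lower and a median of 0.18. The 4 that moved most were all lower, but those other than Mmp3 had low levels. The tolloid proteases Tll2 and Tll1 were at -1.65 (adjusted p = 1.42e-05) and -1.17 (adjusted p = 8.68e-06), and Pcolce2, an enhancer of procollagen processing, was at -1.33 (adjusted p = 3.64e-06), from means of 2.46, 8.99 and 5.77 CPM in normal glucose. Their abundant relatives, named here after their values were seen, were higher: Bmp1 went from 841 ± 21.6 to 1090 ± 50.1 CPM (SD, n = 3, log2 fold change 0.37, adjusted p = 4.56e-04) and Pcolce from 1087 ± 59.4 to 1449 ± 24.8 CPM (0.41, adjusted p = 2.78e-04). The aggrecanases Adamts4 and Adamts5, named likewise, were higher at 0.81 (adjusted p = 3.98e-06) and 0.68 (adjusted p = 4.66e-06). Mmp13, also named after its values were seen, was lower at -0.63, a call kept in 18 of 18 alternatives. Stromelysin (Mmp3) fell from 1833 ± 149 to 936 ± 54.1 CPM (SD, n = 3), at -0.97 (adjusted p = 3.91e-06).

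Of 19 tested growth factors and receptors that members bind, 7 were higher and 4 lower, with a median of 0.12 that was 0.031 without normal glucose replicate 1 and 0.0087 with library size scaling. Tgfb2, a ligand held by decorin, was higher at 1.31 (adjusted p = 6.4e-07), Cd14, a co-receptor used by biglycan, at 1.16 (adjusted p = 5.91e-07) and Lrp1, an endocytic receptor of decorin, at 0.90 (adjusted p = 8.34e-06). Ccn2 was lower at -0.51 (adjusted p = 3.31e-05). Other receptors of the list are named after their values were seen. Egfr (0.41), Itga1 (0.49) and P2rx4 (0.22, a call kept in 16 of 18 alternatives) were higher. The Toll-like receptors Tlr2 (0.12) and Tlr4 (0.14) did not pass the test, and P2rx7 (-0.50), Cd44 (-0.45) and Itgb1 (-0.25) were lower.

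**Figure D5:**
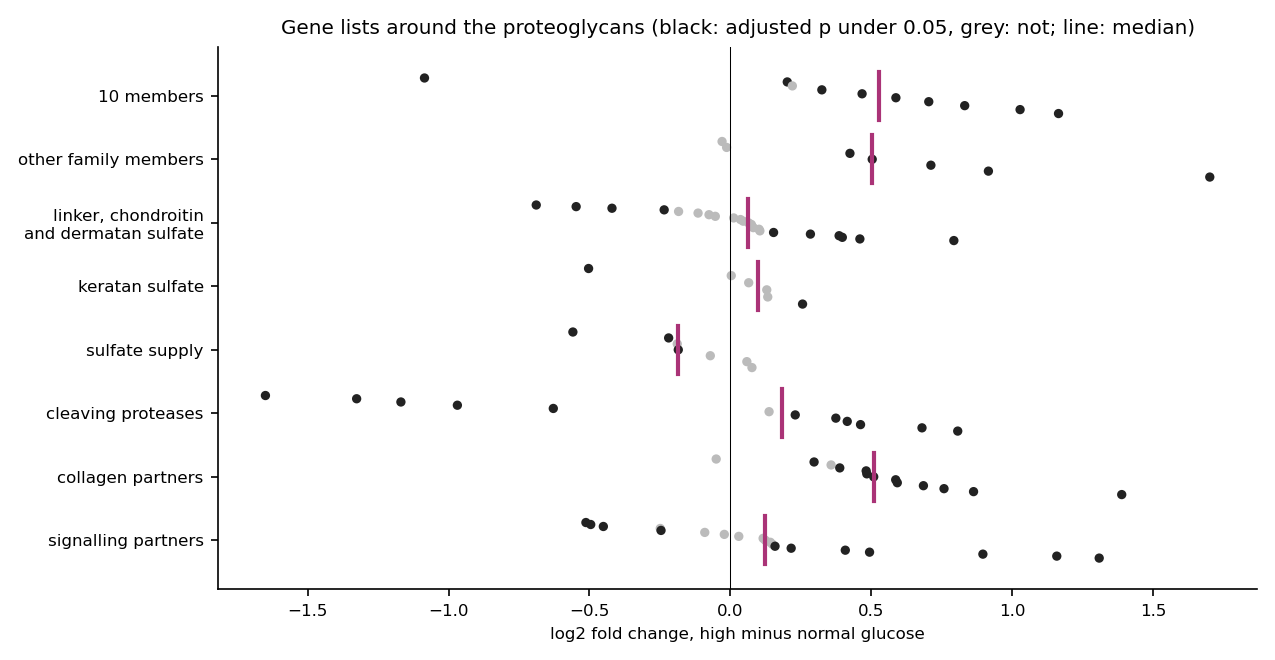
Log2 fold changes, high minus normal glucose, of the tested genes of each list, with a point per gene (black where the adjusted p is under 0.05) and a line at the list median. The medians are 0.53 for the 10 members and 0.51 for the collagens, and the chain synthesis list is centred at 0.064.

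Markers of cell types that make these proteoglycans moved too. Among 12 fibroblast markers, 7 were higher and 4 lower (median 0.37). Pi16 was higher at 2.53, Fap at 0.93 and Postn at 0.80, while S100a4 was lower at -1.27. The other lower ones, named after their values were seen, were Twist2 (-0.70), Dpp4 (-0.66, a call kept in 12 of 18 alternatives) and Thy1 (-0.40). Tendon and skeletal markers, which cover cells that make Fmod, Kera, Omd and Epyc, summed to 84.2 to 89.8 CPM in normal and 101 to 103 CPM in high glucose, with 4 of 9 tested higher and 1 lower. Within that list Cnmd was higher at 3.28, Comp at 1.90 and Tnmd at 0.66, and the bone factor Sp7 was lower at -0.34. Levels were low, with means of 0.738 and 7.18 CPM for Cnmd and 0.249 and 0.933 CPM for Comp in normal and high glucose. The other higher gene, Runx2 (0.18), kept its call in 6 of 18 alternatives. Scx (-0.36), Mkx (0.17) and Sox9 (0.10) did not pass the test, and these 4 genes were named after their values were seen. The part of these cell types in the values of the proteoglycans was not tested.

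The 3 genes whose profile over the 6 samples was most like that of Prelp, the member with the largest change, were Gfra1, Epas1 and Sncaip. Their root mean square differences from Prelp in centred log2 CPM were 0.0313, 0.0390 and 0.0398 among 12479 genes searched, and their log2 fold changes were 1.16, 1.20 and 1.20.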

How the data were processed

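RNA-sequencing of 6 samples, grouped by their labels, was analysed (3 normal, 3 high glucose). Per the labels and the methods of the study, the authors used Trimmomatic for trimming, HISAT2 for alignment (GRCm38) and StringTie for counts per gene. They deposited these counts without normalization. Versions, annotation and strand setting are not given in the sources used here.

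Counts were fitted in R 4.3.3 with edgeR 4.0.16 (filterByExpr with minimum count 10 and minimum total 15, TMM, quasi-likelihood test, Benjamini-Hochberg adjustment over 19015 genes, threshold 0.05). CPM values are TMM-normalized. RPKM used merged exon lengths of GENCODE M21 for GRCm38. Of 55487 identifiers, 55141 had a symbol. Counting error is small for abundant genes but not for those with few counts, such as Chad. The coefficient of variation that edgeR terms biological was 8.44%, and the spread it measures may be technical. The scripts were tested on simulated data. Replicates of a group differed by more than sampling noise (lowest chi-square per degree of freedom 9.76).

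All 10 members are described. The members and lists were chosen with earlier results of these data known. In other lists, the 4 called genes with the largest change and a mean of at least 10 counts were named. Alternatives were DESeq2 1.42.0, limma 3.58.1 (voom), other scalings, filters and thresholds, a replicate block and leaving out each sample. Protein sequences were not used here.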

Additional observations from a re-analysis of the deposited data

How the results depend on the processing

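Over 18 alternatives for each of the 10 members, 174 of 180 log2 fold changes had the same sign and the same call, and none reversed. The 6 that lost the call were all of Bgn: upper quartile scaling (0.16, adjusted p = 0.0578), library size scaling (0.087, adjusted p = 0.265), no filter (0.18, adjusted p = 0.101) and each high glucose sample left out in turn. Ranges were 0.47 to 0.62 for Dcn, 0.72 to 0.84 for Fmod, 1.05 to 1.20 for Prelp and -1.20 to -0.94 for Epyc. Requiring an absolute log2 fold change of at least 1 left 2 members called higher in place of 8. Leaving out 1 sample gave 7 to 8 members higher and 1 to 1 lower.

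Over all tested genes, 3212 were called higher and 2757 lower. The counts were 1946 and 1671 at an adjusted p of 0.01, 395 and 542 with a log2 fold change of at least 1, and 1819 and 4884 with library size scaling, which shifted the overall median by -0.11. Lower genes made 46.2% of the calls with TMM, 56.5% with upper quartile and 72.9% with library size scaling. Leaving out 1 sample gave 1988 to 3149 higher and 2048 to 3065 lower. The lowest count of higher genes was without high glucose replicate 3 (1988), and it was 2010 without high glucose replicate 1. Those fits used fewer samples. RPKM by longest transcript was 2521 and 2899 for Bgn, 958 and 1438 for Dcn and 2.18 and 3.88 for Fmod in normal and high glucose.

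Same-numbered samples did not deviate together (correlations -0.025, 0.0038 and 0.013), and 2 of 6 samples correlated best with their own number, so the numbers were not taken as pairing. With a replicate block, 2909 genes were higher and 2418 lower, and the members kept their calls (Prelp 1.17, Epyc -1.07, Bgn 0.20 with adjusted p = 0.0461). Genes with few counts, such as Chad, are limited by depth.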

Other observations

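Markers of other cell types were set beside the proteoglycans as well. Smooth muscle and pericyte markers summed to 617 to 695 CPM in normal and 517 to 543 CPM in high glucose, with 5 of 7 lower (Cnn1 -1.02, Cspg4 -0.91) and Rgs5 higher at 1.20. Macrophage markers summed to 17.3 to 19.4 CPM in normal and 26.8 to 27.7 CPM in high glucose, of which Cd14 made 9.47 and 21.1 CPM on average, and Adgre1 had 0 to 3 counts per sample. Of 4 tested macrophage markers 1 was higher and 2 were lower, and Cd68 kept its lower call in 10 of 18 alternatives. Keratinocyte markers summed to 4.03 to 5.03 CPM and 4.61 to 5.04 CPM with 1 of 3 tested higher. Glial and melanocyte markers summed to 14.9 to 16.1 CPM and 12.3 to 13.1 CPM with 1 of 4 tested higher and 2 lower. Over the alternatives, 0 to 3 keratinocyte markers were higher, and of the glial and melanocyte markers 0 to 1 were higher and 1 to 2 lower. The part of these cells in the values of the proteoglycans was not tested.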
